A study of Mus musculus with 12 samples.

Results

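The genes described here are the 4 chains of the interferon receptors (Ifnar1, Ifnar2, Ifngr1 and Ifngr2) and 5 transcription factors that act with them (Irf1, Irf3, Irf7, Irf9 and Stat2), 9 of the 27998 genes listed for each library. They were picked out by symbol, and all 9 were found. They were read in cells of the mouse mammary gland, by fibroblast subset, immune cell type and library.

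Single-cell RNA-seq was run on mammary glands of female C57BL/6J mice aged 43 weeks, in 12 groups with 1 library each. The Intact group kept working ovaries, and the other 11 had received 4-vinylcyclohexene diepoxide (VCD, a compound that destroys ovarian follicles) at 160 mg/kg per day for 15 days, so that the vehicle controls carried it too. After ovarian failure, 9 of them formed a layout of hormone by polybrominated diphenyl ethers (PBDEs, flame retardants with endocrine activity), namely no hormone, 17β-estradiol (E2, 1 µg per day for 1 week) or E2 with progesterone (E2 + P4, P4 at 1 mg per day), each without PBDE, with low PBDE fed for 20 weeks or with high PBDE fed for 1 week. The low mixture held PBDE-47, PBDE-100 and PBDE-153 at 0.05, 0.0028 and 0.0063 mg/kg per day and the high mixture held them at 1, 0.056 and 0.126 mg/kg per day, so dose and duration cannot be told apart. The other 2 VCD groups were VCD_Vehicle_NormEnv, a vehicle group whose added label term is not explained in the sources used here, and VCD_E2_ICI, which was given E2 and 5 mg of ICI, an estrogen receptor antagonist. How many animals each library holds was not given in the sources used here, so every p-value below measures the spread between libraries.

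Type I interferons signal through a receptor of Ifnar1 and Ifnar2, and interferon gamma through a receptor of Ifngr1 and Ifngr2. The type I receptor activates Stat2, which acts with Irf9 in a complex that binds interferon-stimulated response elements, whereas interferon gamma acts at gamma-activated sites, with Irf1 among the induced genes. Irf3 waits in the cytoplasm for signals from sensors of viral nucleic acid, while Irf7 is itself an interferon-stimulated gene that amplifies interferon production.

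Of 46257 cells that passed the filters, 25618 were placed in 4 fibroblast subsets by marker genes that include none of the 9: 11971 Dpp4 Pi16 fibroblasts (Dpp4, Pi16, Anxa3, Sema3c), 7548 Fabp4 fibroblasts (Fabp4, Lpl, Cxcl14, Col15a1), 2942 Tnc fibroblasts (Tnc, Mfap4, Penk, Mdk) and 3157 Gdf10 F3 fibroblasts (Gdf10, F3, Fmo2, Gas6). A further 4418 cells were placed in 7 immune types, and all 2451 cells with Cd3 genes were also summed as T cells. The levels below are UMIs of a gene per 1000000 UMIs (CPM) in the sum over the cells of a population in a library, and the sums of the 4 subsets held 1298132 to 29228970 UMIs. In the Dpp4 Pi16 sums, 3 of 4 endothelial markers were detected at a summed 14.9 to 28.1 CPM without hormone and 8.45 to 27.0 CPM with it. There, 5 of 5 macrophage markers were detected at a summed 3.1 to 4.66 CPM without hormone and 3.32 to 11.7 CPM with it, and Pecam1, Epcam and Krt14 were at 0 by the gate. In the Gdf10 F3 sums the macrophage markers ranged from 2.73 to 59.5 CPM and from 3.31 to 51.4 CPM. In the Tnc sums 4 of 5 dendritic cell markers were detected, at 5.22 to 9.24 CPM without hormone and 13.4 to 28.6 CPM with it, 3 of 4 endothelial markers at 5.39 to 7.25 CPM and 1.34 to 3.82 CPM, and 3 of 4 B cell markers at 0 to 2.03 CPM and 1.52 to 24.8 CPM. In the Fabp4 sums the endothelial markers were at 0.113 to 0.585 CPM without hormone and 0.613 to 2.25 CPM with it, and the B cell markers at 0.784 to 1.0 CPM and 1.24 to 3.81 CPM. Their part in the results below was not tested. The genes read for hormone action were chosen with earlier results of these data known, so they give no independent sign of it. Among them, Ctla2a in Dpp4 Pi16 fibroblasts lay at 3.86 to 7.36 CPM in the 3 libraries without hormone and at 21.1 to 752.4 CPM in the 6 with it. The estrogen receptor target Pgr was higher with E2 than without hormone at low PBDE (43.9 against 8.4 CPM) and high PBDE (32.8 against 15.6 CPM) and lower without PBDE (17.7 against 30.6 CPM). Greb1, another target, was at 3.53 to 11.1 CPM without hormone and up to 33.0 CPM with E2, which was the higher at each of the 3 PBDE levels. With E2 + P4, Pgr was at 9.38, 5.85 and 16.1 CPM (no, low and high PBDE) and Greb1 at 6.28, 5.23 and 10.3 CPM, below the libraries without hormone at no PBDE for both genes and at low PBDE for Pgr.

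The 9 genes lie on 5 chromosomes of GRCm38 and are all protein coding. Ifnar2 (ENSMUSG00000022971, chr16:91372783-91405589), Ifnar1 (ENSMUSG00000022967, chr16:91485238-91507441) and Ifngr2 (ENSMUSG00000022965, chr16:91547072-91565623) lie in this order on the plus strand, Ifngr1 (ENSMUSG00000020009) is at chr10:19591949-19610229, and Stat2 (ENSMUSG00000040033) is at chr10:128270559-128292849. Irf7 (ENSMUSG00000025498) is at chr7:141262706-141266481 on the minus strand, Irf3 (ENSMUSG00000003184) at chr7:44997648-45002848, Irf1 (ENSMUSG00000018899) at chr11:53770014-53778374 and Irf9 (ENSMUSG00000002325) at chr14:55603571-55610030. The promoters of all 9 were read from RefSeq on GRCm38.p6, in 11 windows of 250 bases before to 50 bases after a start site, and searched on both strands for the core letters of the interferon-stimulated response element (GAAANNGAAA) and of the gamma-activated site (TTCNNNGAA). The first was found for 1 gene, Stat2, and in 3.44% of 32851 promoters, and the second for 3 genes, Ifnar1, Ifnar2 and Irf1, and in 8.3%. The 3 stretches shown are those upstream of the start site that hold a whole match, in capitals, and belong to a subunit of the factor complex, an induced factor and a receptor chain.

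Stat2, chr10:128270248-128270335, plus strand, match 222 bases before the start site, on the minus strand: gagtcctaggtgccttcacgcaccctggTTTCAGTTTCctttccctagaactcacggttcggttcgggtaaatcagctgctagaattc

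Irf1, chr11:53769874-53769982, plus strand, match 90 bases before the start site: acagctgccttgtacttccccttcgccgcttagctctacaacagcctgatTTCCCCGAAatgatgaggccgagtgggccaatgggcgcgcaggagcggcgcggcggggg

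Ifnar2, chr16:91372533-91372627, plus strand, match 214 bases before the start site: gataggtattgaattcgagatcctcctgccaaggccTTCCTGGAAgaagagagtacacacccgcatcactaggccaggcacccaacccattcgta

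Each match is a description of letters in the reference genome. No match was found in the windows of Irf7, Irf9, Irf3, Ifngr1 and Ifngr2, which says only that these letters are not in these windows.

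The receptor chains differed between cell types in level. Ifngr1, the chain that binds interferon gamma, was highest in natural killer and innate lymphoid cells, at 1299.6 to 2052.2 CPM over 12 libraries with a median of 1763.2. CD4 and CD8 T cells followed with medians of 1105.4 and 1090.7 CPM, and these neighbours overlapped in range. All other populations lay below them without overlap, from dendritic cells (median 345.4 CPM) down to B cells (median 42.1 CPM). Among fibroblasts, Ifngr1 was lowest in the Dpp4 Pi16 subset, where its range of 128.5 to 167.7 CPM did not reach that of the Gdf10 F3 subset (170.9 to 246.3 CPM).

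Its partner Ifngr2, which recruits Jak2 to the receptor, had another order. The medians were 165.1 CPM in neutrophils, 118.6 CPM in dendritic cells and 109.7 CPM in macrophages, against 55.4 CPM in CD4 T cells, 16.8 CPM in CD8 T cells and 7.76 CPM in natural killer and innate lymphoid cells. Neighbours in this order overlapped, and neutrophils ran from 0.0 to 219.3 CPM. The natural killer and innate lymphoid sums held only 0 to 10 Ifngr2 UMIs per library. In natural killer and innate lymphoid cells, Ifngr2 was 7.65-fold lower than the mean of the other immune types (log2 difference -2.94 ± 0.23 SE, adjusted p = 5.61e-16) and Ifngr1 was 4.06-fold higher (2.02 ± 0.07 SE, adjusted p = 3.57e-28), by the edgeR test in which each library formed a block. In CD4 and CD8 T cells the Ifngr1 differences were 1.43 ± 0.07 and 1.26 ± 0.07, and the CD8 T cells alone of these also had less Ifngr2 by the test (-1.88 ± 0.20, adjusted p = 2.59e-11). In CD4 T cells the Ifngr2 difference was -0.02 ± 0.18.

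Ifnar2, the higher-affinity chain of the type I receptor, was highest in B cells, where its range of 168.1 to 491.6 CPM lay above the 107.6 to 156.7 CPM of macrophages, the next in order. Ifnar1, the other chain, reached its highest medians in CD4 T cells (171.8 CPM) and CD8 T cells (148.1 CPM). The lowest level among immune types was in macrophages (79.7 CPM), whose range of 63.3 to 93.0 CPM lay above every fibroblast subset (medians 25.8 to 33.5 CPM). From the Tnc fibroblasts down to luminal cells, neighbours in the order of Ifnar1 overlapped.

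Of the factors, Irf7 had medians over the 12 libraries of 180.5 CPM in Dpp4 Pi16 fibroblasts and 170.6 CPM in macrophages, then 146.5 CPM in neutrophils. Without hormone it was at 138.0, 59.5 and 116.3 CPM in macrophages (no, low and high PBDE). These values lay above the 94.8, 46.8 and 71.7 CPM of Dpp4 Pi16 fibroblasts at the same PBDE levels. The wide ranges of Irf7 over the 12 libraries overlapped between neighbours through the whole order. The same overlap held for the other factors. Irf1 had its highest medians in endothelial cells (423.2 CPM) and Gdf10 F3 fibroblasts (283.5 CPM), and the medians of Irf3 lay between 9.7 CPM and 44.1 CPM and those of Irf9 between 25.5 CPM and 88.4 CPM. The endothelial sums held only 2 to 30 cells per library, the smallest with 5280 UMIs, and Irf1 in them ranged from 143.1 to 836.2 CPM. Within the fibroblasts Irf7 was 5.43-fold higher in the Dpp4 Pi16 subset than in the mean of the other 3 (log2 difference 2.44 ± 0.17 SE, edgeR adjusted p = 2.69e-16). This held without hormone too, where Dpp4 Pi16 fibroblasts lay at 46.8 to 94.8 CPM and the other 3 subsets at 16.2 to 33.9 CPM. Over the 12 libraries Irf9 and Stat2, the partners in the type I complex, were higher in this subset by 0.49 ± 0.10 and 0.40 ± 0.09 (log2). Without hormone they did not stand out. There the mean of Irf9 was 33.5 CPM in the Dpp4 Pi16 subset and 32.1 to 35.9 CPM in the other subsets. The means of Stat2 were 32.1 CPM and 32.1 to 34.0 CPM. The 4 receptor chains were lower in the Dpp4 Pi16 subset by 0.17 to 0.61 over the 12 libraries. In all, 7 of the 9 genes differed in the Dpp4 Pi16 subset, where 73.4% of all genes tested were called, so that the share is close to the background.

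With only 9 genes, the counts in the other subsets are not read as different from their backgrounds either. In Tnc fibroblasts 7 of 9 were called against 57.2% of all genes. Irf7 (-1.53 ± 0.22), Irf1 (-0.52 ± 0.10), Stat2 (-0.50 ± 0.11) and Irf9 (-0.44 ± 0.12) were lower over the 12 libraries. Without hormone the Tnc mean of Irf9 was 35.1 CPM, inside the 32.1 to 35.9 CPM of the other subsets, and that of Stat2 was 34.0 CPM against 32.1 to 32.9 CPM. The Tnc mean of Irf7 was then 26.0 CPM, against 71.1 CPM in Dpp4 Pi16, 23.8 CPM in Fabp4 and 21.2 CPM in Gdf10 F3 fibroblasts. In Gdf10 F3 fibroblasts 5 of 9 were called against 42.6%, with Irf1 and Ifnar2 higher by 0.55 ± 0.09 and 0.33 ± 0.08, and in Fabp4 fibroblasts 4 of 9 against 52.4%, with Ifngr2 and Ifngr1 higher by 0.51 ± 0.09 and 0.38 ± 0.05 and Irf7 lower (-0.89 ± 0.19). The values given with an SE are log2 differences from edgeR. The small Ifnar1 difference was called in Tnc fibroblasts (0.14) but not without Intact, VCD_Low_E2 or VCD_E2_ICI (0.12 each), and in Fabp4 fibroblasts (0.13) but not without Intact (0.11) or VCD_E2_P4 (0.10).

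Among the immune types, macrophages differed from the mean of the others in 8 of the 9 genes, against 58.7% of all genes tested. Irf7 (1.34 ± 0.15), Ifngr2 (1.31 ± 0.11) and Stat2 (1.06 ± 0.16) were higher there, and Ifngr1 (-0.69 ± 0.08) and Ifnar1 (-0.66 ± 0.08) lower, on the log2 scale. In neutrophils Irf7 (1.35 ± 0.35), Irf9 (1.16 ± 0.25) and Ifngr2 (2.33 ± 0.26) were higher too. The counts were 6 of 9 in natural killer and innate lymphoid cells (background 46.5%), 5 of 9 in dendritic cells (46.1%), 5 of 9 in CD8 T cells (47.8%), 4 of 9 in CD4 T cells (42.8%), 4 of 9 in neutrophils (54.0%) and 2 of 9 in B cells (43.9%). The test used libraries with at least 20 cells of a type, which left 4 for neutrophils and 2 for B cells, and Stat2 had a median of 0 CPM in neutrophils, whose smallest sum held 17971 UMIs. The median log2 difference of all genes was 0.23 in macrophages (0.08 under DESeq2) and -0.87 in neutrophils (-0.74), which these values should be read beside. Some calls rested on single libraries. In CD8 T cells the call of Irf7 (-0.52) was lost without VCD_Vehicle, VCD_E2, VCD_E2_P4, VCD_Low_E2_P4, VCD_Vehicle_NormEnv, VCD_High_PBDE_E2 or VCD_E2_ICI (-0.51 to -0.41), and that of Irf9 (-0.32) without the same 7 (-0.34 to -0.21). The call of Stat2 in natural killer and innate lymphoid cells (-0.69) was lost without Intact, VCD_Vehicle, VCD_E2, VCD_E2_P4, VCD_Low_E2 or VCD_Vehicle_NormEnv (-0.66 to -0.42), and that of Ifnar1 in dendritic cells (0.28) without VCD_E2_P4 (0.21) or VCD_Low_E2_P4 (0.15).

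**Figure D1:**
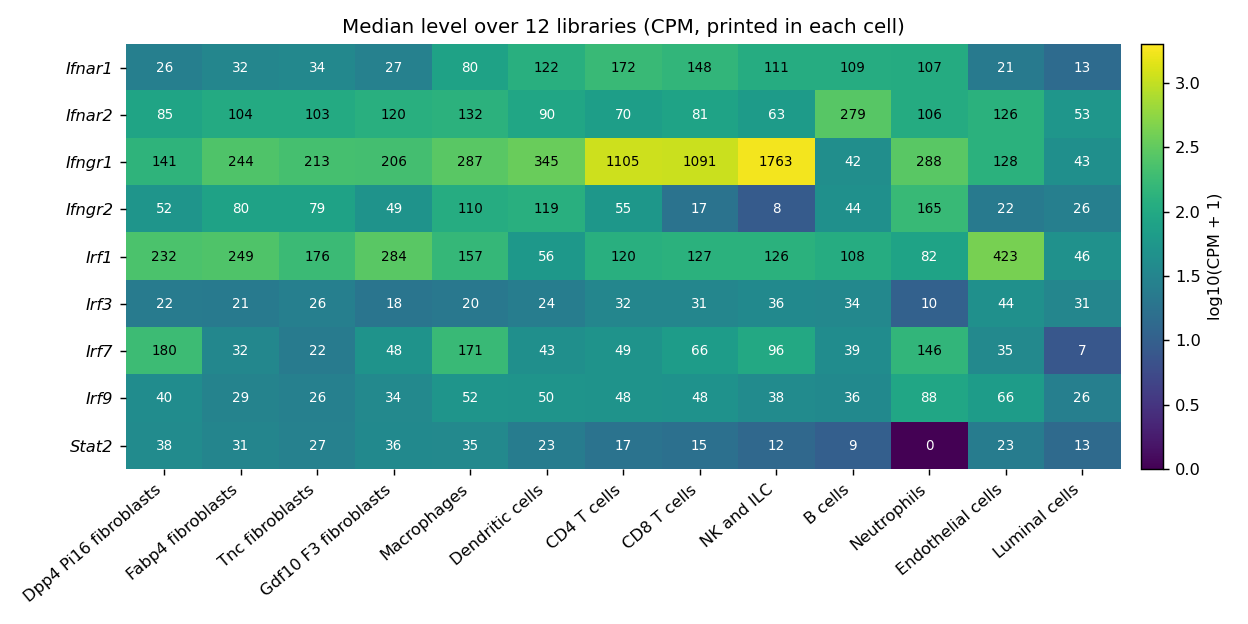
Median level of each gene over 12 libraries in 13 gated populations, printed as CPM and coloured by log10(CPM + 1). Ifngr1 stands out in natural killer, CD8 T and CD4 T cells, Ifnar2 in B cells, and Irf7 in Dpp4 Pi16 fibroblasts, macrophages and neutrophils.

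The main comparison asked whether E2, alone or with P4, moved the 9 genes: the 6 libraries with E2 or E2 + P4 were set against the 3 without hormone, with PBDE level as a term. All 9 genes passed the filter on low counts in each of the 6 populations tested. Irf7 rose in 3 of 4 fibroblast subsets, Ifngr2 rose in 2, and Irf9 rose in Dpp4 Pi16 fibroblasts and fell in Fabp4 and Tnc fibroblasts. The counts were 3 of 9 in Dpp4 Pi16 fibroblasts, where 10.4% of all genes were called, 4 of 9 in Fabp4 fibroblasts (19.3%), 4 of 9 in Tnc fibroblasts (30.6%) and 1 of 9 in Gdf10 F3 fibroblasts (6.44%). None was called in macrophages, where 0.204% of all genes were called, or in T cells (0.0%), although 1023 and 406 genes had an unadjusted p under 0.05 in those populations and DESeq2 called 71 and 5. None of the 9 was called by DESeq2 in either.

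**Figure D2:**
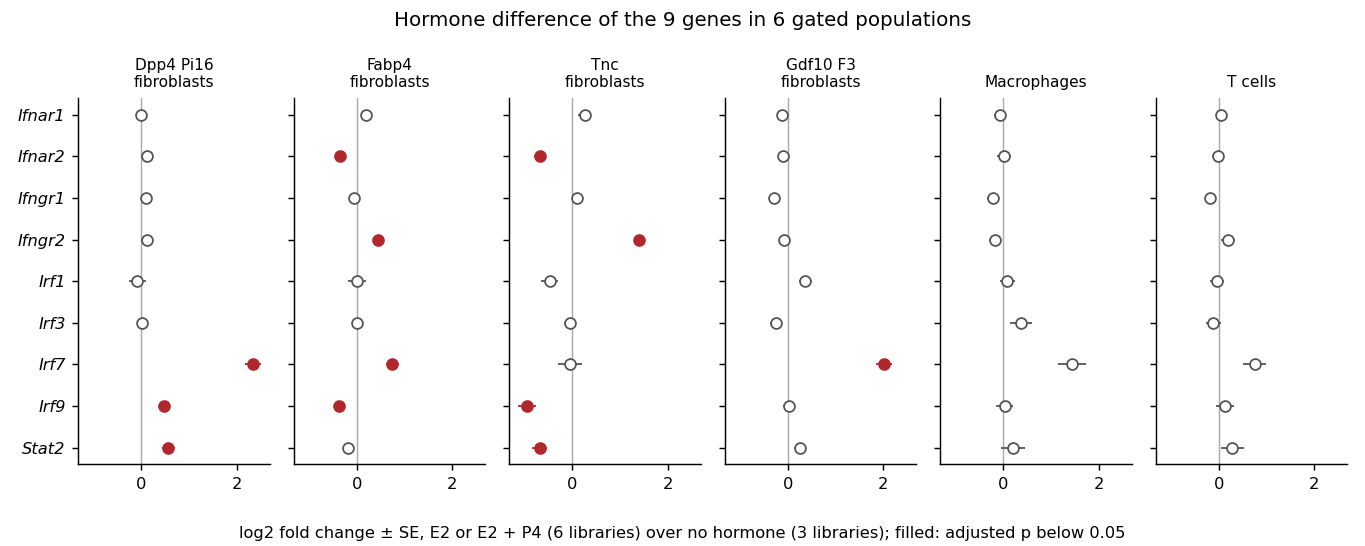
Log2 fold change of each gene with its SE, E2 or E2 + P4 (6 libraries) over no hormone (3 libraries), in 6 gated populations, with filled points for an adjusted p under 0.05 (edgeR). Irf7 lies at 2.34 and 2.01 in Dpp4 Pi16 and Gdf10 F3 fibroblasts, and Tnc fibroblasts hold Ifngr2 at 1.40 with Irf9, Stat2 and Ifnar2 below 0.

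Irf7, the amplifier of the type I response, changed most. In Dpp4 Pi16 fibroblasts it was at 94.8, 46.8 and 71.7 CPM without hormone (no, low and high PBDE), at 378.1, 301.3 and 212.1 CPM with E2 and at 489.6, 384.9 and 410.8 CPM with E2 + P4. Every library with hormone was above every library without, and the fitted difference was 5.06-fold (log2 2.34 ± 0.17 SE, edgeR adjusted p = 0.00267). The low PBDE libraries had the widest gap, and there the code in the file names, whose meaning is not given in the sources used here, separates the library without hormone from those with it. With that code as a term the call held, and leaving out the 3 low PBDE libraries, which was decided on once the data had been seen, gave 2.14 with an adjusted p of 0.0555.

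In Gdf10 F3 fibroblasts, Irf7 was at 30.2, 17.2 and 16.2 CPM without hormone, at 54.3, 67.1 and 45.8 CPM with E2 and at 126.9, 133.0 and 108.4 CPM with E2 + P4. The 3 conditions did not overlap, and hormone gave a 4.03-fold difference (log2 2.01 ± 0.17 SE, edgeR adjusted p = 0.000138). The gated cells shifted too, with a median level of the Fabp4 markers of 25.8 to 34.9 UMIs per 10000 in Gdf10 F3 cells without hormone and 12.5 to 20.5 with it, and of 45.3 to 56.8 and 57.8 to 85.8 in Fabp4 cells. The part of these shifts in the results was not tested. In Fabp4 fibroblasts the levels were 29.7, 19.6 and 22.3 CPM without hormone and 35.0 to 48.6 CPM with it (median 41.5), a 1.68-fold difference without overlap (log2 0.75 ± 0.13, adjusted p = 0.0046), which without the low PBDE libraries was 0.61 with an adjusted p of 0.0749. Tnc fibroblasts did not share this. Their Irf7 was at 33.9, 27.9 and 16.2 CPM without hormone and 17.4 to 46.9 CPM with it, the groups overlapped, and the log2 difference was -0.05 ± 0.25 (adjusted p = 0.896).

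**Figure D3:**
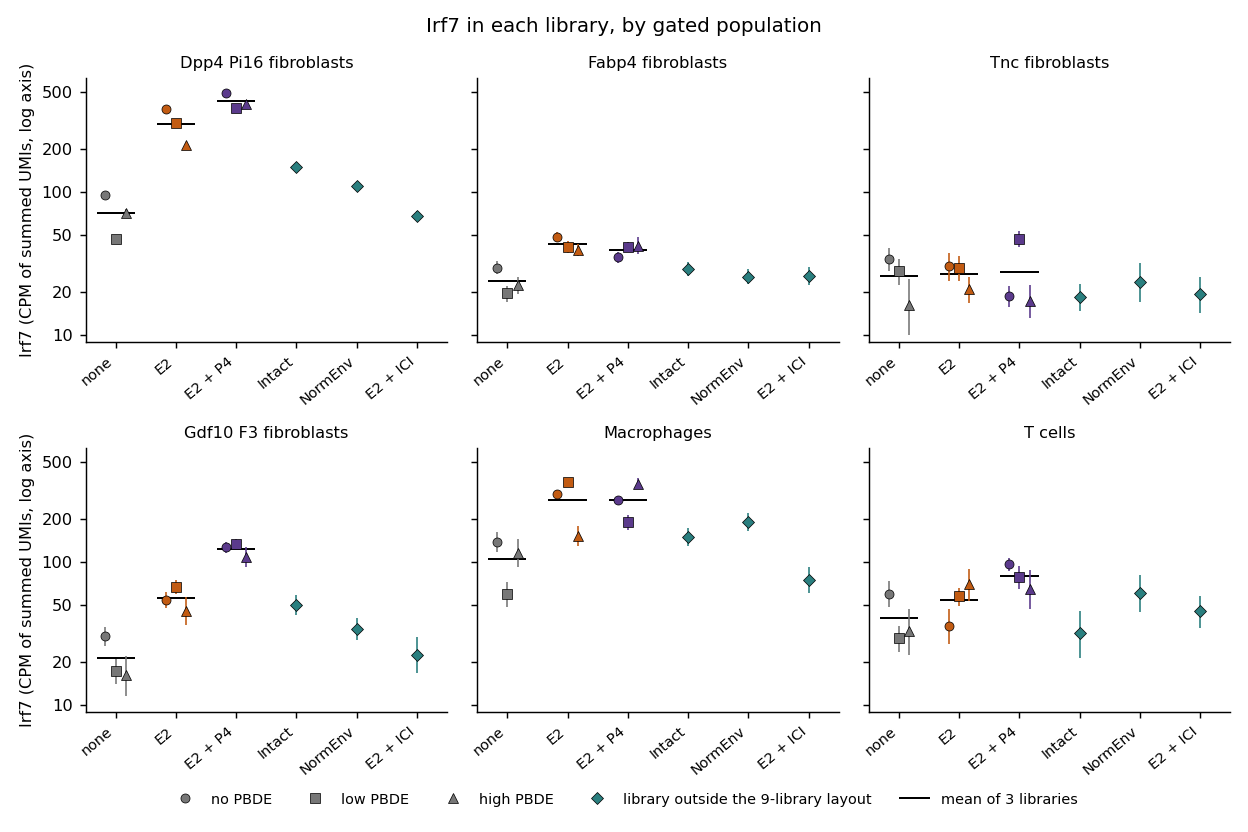
Irf7 in CPM on a log axis in each of 12 libraries, by hormone and PBDE level, in 4 fibroblast subsets, macrophages and T cells, with exact 95% Poisson intervals that cover counting error only and bars at the mean of 3 libraries. Within the 9 libraries of the layout, the 6 with hormone lie above the 3 without it in Dpp4 Pi16, Gdf10 F3 and Fabp4 fibroblasts and in macrophages and overlap with them in Tnc fibroblasts and T cells, while VCD_Vehicle_NormEnv, outside the layout, reaches 190.7 CPM in macrophages.

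In macrophages Irf7 was at 138.0, 59.5 and 116.3 CPM without hormone, at 297.6, 362.8 and 152.6 CPM with E2 and at 270.4, 188.6 and 352.5 CPM with E2 + P4. The groups did not overlap, yet the difference of 1.44 ± 0.30 (log2) missed the threshold after adjustment (edgeR adjusted p = 0.0733). It passed without the VCD_Low_E2 library (1.17, adjusted p = 0.0229), without the VCD_High_PBDE_E2 library (1.63, adjusted p = 0.00384) and without the low PBDE libraries (1.07, adjusted p = 0.048). Fibroblast markers in the macrophage sums were 259.2 to 415.8 CPM without hormone and 381.4 to 666.8 CPM with it, and their part in the Irf7 difference was not tested. In T cells the Irf7 difference was 0.75 ± 0.24 (adjusted p = 0.963), with 29.4 to 59.8 CPM without hormone and 35.6 to 96.4 CPM with it, in ranges that overlap.

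The smaller immune types were tested after lowering the minimum to 10 cells per library, also chosen after seeing the data. The log2 difference of Irf7 was 2.04 ± 0.55 in dendritic cells (edgeR adjusted p = 0.241), 0.80 ± 0.20 in CD4 T cells (adjusted p = 0.966), 0.59 ± 0.35 in CD8 T cells (adjusted p = 1.0) and 0.51 ± 0.28 in natural killer and innate lymphoid cells (adjusted p = 0.974). None passed, and in these 4 types 0.0358%, 0.0%, 0.0367% and 0.0607% of all genes tested were called.

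The receptor chain that responded most was Ifngr2 in Tnc fibroblasts. It was at 44.1, 35.0 and 44.7 CPM without hormone, at 102.8, 100.7 and 97.7 CPM with E2 and at 132.3, 111.5 and 141.9 CPM with E2 + P4. The groups were far apart, with a 2.63-fold difference (log2 1.40 ± 0.11 SE, edgeR adjusted p = 1.48e-05) that kept its call without each library in turn. The gated Tnc cells themselves differed between the groups: their median level of the 4 Fabp4 markers was 13.3 to 18.8 UMIs per 10000 without hormone and 26.2 to 34.1 with it, and their median depth was 7555 to 9040 and 15306 to 26994 UMIs per cell. The part of this shift in the Tnc results was not tested. In Fabp4 fibroblasts Ifngr2 was at 64.7 to 78.4 CPM without hormone and 81.0 to 128.0 CPM with it (median 99.3), which do not overlap, for a difference of 0.45 ± 0.09 (adjusted p = 0.00797). This call was lost without the VCD_Low_PBDE library (0.39, adjusted p = 0.0636), with the file-name code as a term (0.40, adjusted p = 0.0587) and without the low PBDE libraries (0.40, adjusted p = 0.0983).

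Ifnar2 fell in the same subsets. In Tnc fibroblasts it was at 138.0, 103.0 and 126.3 CPM without hormone, at 102.8, 102.8 and 88.8 CPM with E2 and at 58.4, 77.7 and 64.9 CPM with E2 + P4. The 2 highest libraries with hormone lay just under the lowest without it, and the log2 difference was -0.67 ± 0.13 (edgeR adjusted p = 0.00286). In Fabp4 fibroblasts it was at 114.6, 102.2 and 120.6 CPM without hormone and 77.2 to 105.5 CPM with it, in ranges that overlap (log2 -0.35 ± 0.10, adjusted p = 0.0381). The Fabp4 call rested on single libraries. It remained without VCD_Low_PBDE and without VCD_Low_E2_P4 and was lost without each of the other 7, where the difference ran from -0.27 (without VCD_Vehicle, adjusted p = 0.163) to -0.36 (without VCD_High_PBDE_E2, adjusted p = 0.0643), with adjusted p-values of 0.0794, 0.093, 0.0826, 0.165 and 0.0774 without VCD_E2, VCD_E2_P4, VCD_Low_E2, VCD_High_PBDE and VCD_High_PBDE_E2_P4.

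Irf9 and Stat2, which act together in the type I complex, went in opposite directions in Dpp4 Pi16 and Tnc fibroblasts. In Dpp4 Pi16 fibroblasts Irf9 was at 39.9, 28.1 and 32.5 CPM without hormone, at 59.3, 52.4 and 36.6 CPM with E2 and at 47.9, 47.0 and 39.4 CPM with E2 + P4. Stat2 was at 43.0, 25.1 and 28.2 CPM, then 60.0, 56.9 and 31.9 CPM, then 57.2, 51.2 and 34.0 CPM. Within each PBDE level both genes were higher with hormone, but the groups overlapped, since the high PBDE libraries with hormone lay below VCD_Vehicle for Irf9 (36.6 and 39.4 against 39.9 CPM) and for Stat2 (31.9 and 34.0 against 43.0 CPM). The log2 differences were 0.47 ± 0.11 for Irf9 (edgeR adjusted p = 0.0317) and 0.57 ± 0.14 for Stat2 (adjusted p = 0.0399). Neither call was firm. That of Irf9 was lost without VCD_Vehicle, VCD_E2, VCD_Low_PBDE, VCD_Low_E2, VCD_Low_E2_P4 or VCD_High_PBDE_E2_P4 (0.34 to 0.49, adjusted p 0.0692 to 0.154). That of Stat2 was lost without the same 6 libraries or VCD_E2_P4 (0.35 to 0.63, adjusted p 0.0664 to 0.125). With the file-name code as a term they were 0.33 (adjusted p = 0.152) and 0.35 (adjusted p = 0.124).

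In Tnc fibroblasts Irf9 was at 41.8, 31.9 and 31.6 CPM without hormone, at 24.5, 27.0 and 15.8 CPM with E2 and at 13.2, 22.3 and 15.9 CPM with E2 + P4. Stat2 was at 36.3, 29.5 and 36.2 CPM without hormone and 18.4 to 31.8 CPM with it, where only VCD_Low_E2 reached into the range of the controls. Both fell, Irf9 by 0.94 ± 0.19 on the log2 scale (edgeR adjusted p = 0.00331) and Stat2 by 0.68 ± 0.16 (adjusted p = 0.00733). Irf9 kept its call without each library in turn, and Stat2 lost it only without VCD_Vehicle (-0.62, adjusted p = 0.0598). In Fabp4 fibroblasts Irf9 was at 35.7, 31.3 and 29.5 CPM without hormone and 22.9 to 29.7 CPM with it, in ranges that just met, and fell by 0.36 ± 0.08 (adjusted p = 0.0117), which was lost without VCD_Vehicle (-0.31, adjusted p = 0.061), under DESeq2 (adjusted p = 0.0613) and without the low PBDE libraries (-0.43, adjusted p = 0.0661). Stat2 there differed by -0.17 ± 0.10 (adjusted p = 0.25).

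**Figure D4:**
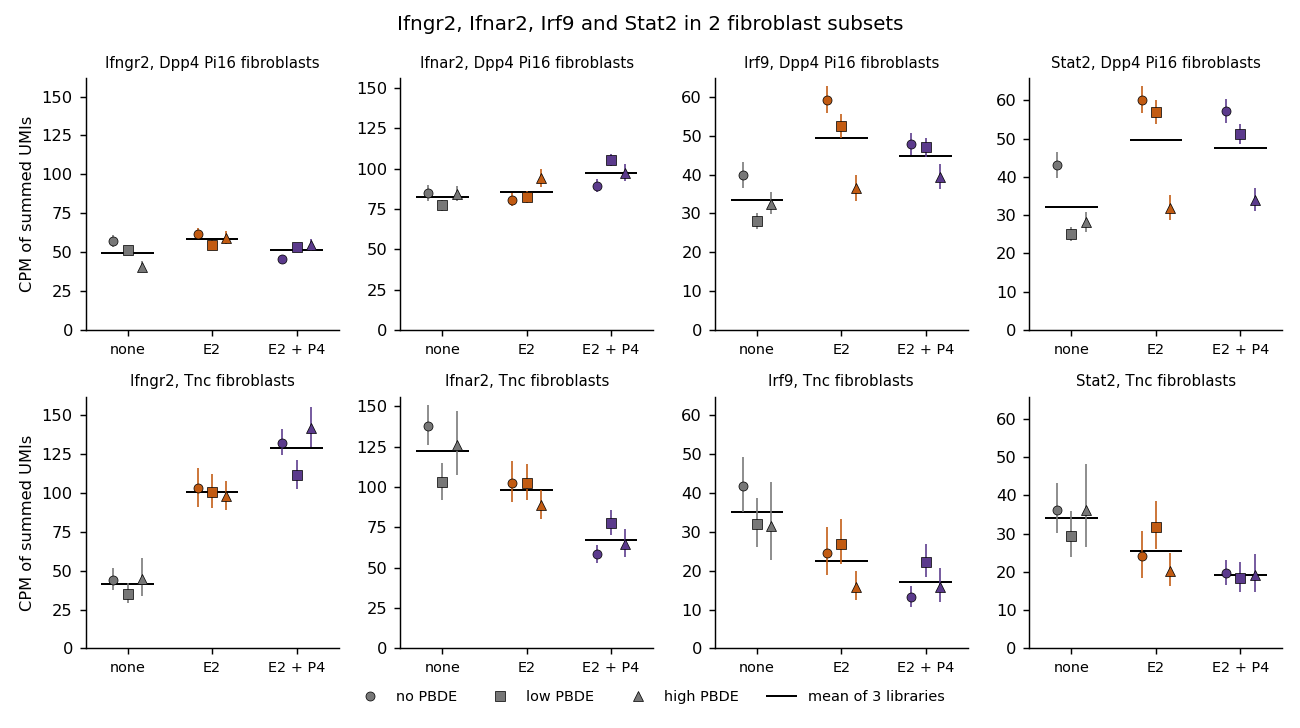
Ifngr2, Ifnar2, Irf9 and Stat2 in CPM by hormone and PBDE level, in Dpp4 Pi16 fibroblasts (top) and Tnc fibroblasts (bottom), with exact 95% Poisson intervals (counting error only) and bars at the mean of 3 libraries. In Tnc fibroblasts Ifngr2 goes from 35.0 to 44.7 CPM up to 97.7 to 141.9 CPM while the other 3 fall, and in Dpp4 Pi16 fibroblasts Irf9 and Stat2 are higher with hormone within each PBDE level.

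The difference between subsets was tested as such, by setting the hormone response of Dpp4 Pi16 fibroblasts against the mean response of the other 3 subsets. For 5 of the 9 genes these responses differed, and 17.7% of all 12769 genes did. The Dpp4 Pi16 response was higher for Irf7 (log2 1.44 ± 0.29 SE, edgeR adjusted p = 0.00125), Irf9 (0.93 ± 0.14, adjusted p = 9.75e-05), Stat2 (0.80 ± 0.13, adjusted p = 0.00022) and Ifnar2 (0.52 ± 0.15, adjusted p = 0.0176), and lower for Ifngr2 (-0.48 ± 0.13, adjusted p = 0.0101). The Irf7, Irf9 and Stat2 calls remained without each library in turn. This test of the difference was not run with the file-name code as a term or without all low PBDE libraries. Ifnar2 lost its call without VCD_Vehicle (0.46, adjusted p = 0.0792), VCD_Low_PBDE (0.56, adjusted p = 0.0608) or VCD_High_PBDE (0.51, adjusted p = 0.0833), and Ifngr2 lost it without VCD_Low_PBDE (-0.36, adjusted p = 0.161).

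The remaining 4 genes passed no hormone test. Irf3, the factor held ready for viral sensing, was at 20.9 to 25.6 CPM over all 9 libraries of the layout in Dpp4 Pi16 fibroblasts. In Gdf10 F3 fibroblasts it was at 19.9, 24.7 and 25.5 CPM without hormone and at 15.6, 17.1 and 17.7 CPM with E2. With E2 + P4 it was at 21.2, 23.3 and 18.4 CPM there. The log2 differences of Irf3 in the 4 subsets ran from -0.24 ± 0.12 to 0.02 ± 0.08. Ifnar1 differed by -0.11 to 0.26 and Ifngr1 by -0.28 to 0.11. For Ifngr1 in Gdf10 F3 fibroblasts the groups did not overlap (228.3 to 246.3 CPM without hormone and 170.9 to 210.2 CPM with it), but the adjusted p was 0.102. Irf1, the interferon gamma-induced factor, spread widely among libraries of like treatment, from 136.6 to 332.4 CPM with hormone in Dpp4 Pi16 fibroblasts, and its differences were -0.47 ± 0.18 in Tnc fibroblasts (adjusted p = 0.0692) and 0.37 ± 0.14 in Gdf10 F3 fibroblasts (adjusted p = 0.148). The Tnc difference of Irf1 passed without VCD_E2_P4 (-0.62, adjusted p = 0.0127) or VCD_Low_E2 (-0.56, adjusted p = 0.0391), and the Gdf10 F3 difference without VCD_E2 (0.51, adjusted p = 0.0284).

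Progesterone added to E2 was compared with E2 alone, 3 libraries against 3. Irf7 in Gdf10 F3 fibroblasts was the only call among the 9 genes, at 108.4 to 133.0 CPM with E2 + P4 against 45.8 to 67.1 CPM with E2 (2.28-fold, log2 1.19 ± 0.17 SE, edgeR adjusted p = 0.0459), in a subset where 0.0364% of all genes were called. It was lost without VCD_E2 (1.01, adjusted p = 0.29), VCD_E2_P4 (1.28, adjusted p = 0.075), VCD_Low_E2_P4 (1.16, adjusted p = 0.207), VCD_High_PBDE_E2 (1.18, adjusted p = 0.0678) or VCD_High_PBDE_E2_P4 (1.12, adjusted p = 0.168). In Dpp4 Pi16 fibroblasts Irf7 did not overlap between E2 and E2 + P4 either (0.63 ± 0.18, adjusted p = 0.325). There edgeR called 0.0% of genes, with 1316 at an unadjusted p under 0.05, while DESeq2 called 129 genes, Irf7 among them (adjusted p = 0.0284). No other population had a call among the 9, with 0.206% of all genes called in Fabp4 fibroblasts, 4.37% in Tnc fibroblasts, 0.0% in macrophages and 0.217% in T cells. Ranges also did not overlap, with no call, for Ifnar2 (-0.57 ± 0.15), Stat2 (-0.42 ± 0.18), Ifngr1 (-0.24 ± 0.11) and Ifngr2 (0.33 ± 0.11) in Tnc fibroblasts. The same held for Irf1 (0.71 ± 0.17) and Irf3 (0.42 ± 0.15) in Gdf10 F3 fibroblasts, Ifngr2 in Fabp4 fibroblasts (0.40 ± 0.10) and macrophages (0.22 ± 0.13) and Irf9 in T cells (0.37 ± 0.22). The share of all genes separated in this way is not given. With 3 libraries against 3, ranges can also part by chance, so no effect of progesterone is read from these. DESeq2 called Irf1 in Gdf10 F3 fibroblasts (0.72, adjusted p = 0.0126). The Ifnar2 difference passed without VCD_Vehicle, VCD_Low_PBDE or VCD_High_PBDE (-0.58 to -0.57, adjusted p 0.0398 to 0.0493).

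Read within each PBDE level, where each ratio sets 1 library against 1 and has no replicate check, the log2 ratio of Irf7 in Dpp4 Pi16 fibroblasts was 1.99 for E2 and 2.36 for E2 + P4 without PBDE, 2.66 and 3.01 with low PBDE, and 1.55 and 2.50 with high PBDE, on the scale log2(CPM + 1). In Gdf10 F3 fibroblasts the same ratios were 0.82 and 2.03, 1.90 and 2.88, and 1.44 and 2.67. All 6 ratios were above 0 in Dpp4 Pi16, Fabp4 and Gdf10 F3 fibroblasts and in macrophages, and 4 of 6 in Tnc fibroblasts. For Ifngr2 in Tnc fibroblasts all 6 lay between 1.11 and 1.65. The Stat2 ratios in Dpp4 Pi16 fibroblasts were 1.15 and 1.00 with low PBDE but 0.17 and 0.26 with high PBDE.

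The libraries outside the layout give single values beside these. In Dpp4 Pi16 fibroblasts Irf7 was at 148.8 CPM in the Intact library (95% Poisson interval 142.5 to 155.4, counting error only), at 109.8 CPM in VCD_Vehicle_NormEnv and at 68.5 CPM in VCD_E2_ICI, against 378.1 CPM in VCD_E2. The VCD_E2_ICI value lay within the range of the 3 libraries without hormone, as it did in Gdf10 F3 fibroblasts (22.5 CPM) and macrophages (75.4 CPM). VCD_Vehicle_NormEnv and Intact lay above those 3 libraries in Dpp4 Pi16 fibroblasts (46.8 to 94.8 CPM) and also in macrophages (190.7 and 149.3 CPM), the first of them in macrophages inside the range with hormone (152.6 to 362.8 CPM). In Gdf10 F3 fibroblasts both also lay above the 3 libraries without hormone, VCD_Vehicle_NormEnv at 34.1 CPM and Intact inside the range of the E2 libraries (45.8 to 67.1 CPM). Ifngr2 in Tnc fibroblasts was at 55.6, 48.2 and 60.4 CPM in Intact, VCD_Vehicle_NormEnv and VCD_E2_ICI, above the 3 libraries without hormone and below the 6 with it. Ifnar2 in the same cells was at 111.1, 134.8 and 131.5 CPM. Irf9 and Stat2 in Tnc fibroblasts were at 25.7 and 21.7 CPM in VCD_E2_ICI, inside the ranges with hormone (13.2 to 27.0 and 18.4 to 31.8 CPM). Irf9 in Fabp4 fibroblasts was at 23.6 CPM in that library, also inside the range with hormone (22.9 to 29.7 CPM). In Dpp4 Pi16 fibroblasts its Irf9 (26.4 CPM) and Stat2 (24.4 CPM) lay below all 3 libraries without hormone.

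To see whether Irf7 was carried by a few cells, interferon-high cells were set apart as those with at least 10 UMIs of Ifit1, Ifit3, Isg15, Rsad2, Ifi44 and Oasl2 per 10000 UMIs. In Dpp4 Pi16 fibroblasts they were 1.07% to 5.21% of cells in the libraries without hormone and 7.89% to 23.3% in those with it. They held 3.57% to 20.9% of the Irf7 UMIs without hormone and 18.7% to 42.2% with it. The other cells also differed: their Irf7 was at 45.6 to 84.1 CPM without hormone and 187.6 to 410.6 CPM with it, and with the interferon-high cells removed, an alternative added after seeing the data, the difference was 2.23 ± 0.12 (edgeR adjusted p = 0.00089).

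Irf9 and Stat2 in interferon-high cells are set beside Irf7 as a description. In the Dpp4 Pi16 subset Irf9 was at 73.2 to 74.2 CPM in the interferon-high cells without hormone and 48.8 to 76.0 CPM in those with it, and Stat2 at 86.9 to 113.3 CPM and 82.0 to 110.8 CPM, so that the ranges with and without hormone overlapped, while Irf7 in these cells was at 183.6 to 271.4 CPM and 489.9 to 907.2 CPM. The values without hormone rest on only 39, 16 and 55 interferon-high cells (no, low and high PBDE). With the interferon-high cells removed, Irf9 kept its call (0.44, adjusted p = 0.0206) and Stat2 did not (0.42, adjusted p = 0.0565). The cells were split by interferon-stimulated genes, which hormone raised and with which these factors are known to be induced, so higher levels of Irf7, Irf9 and Stat2 in interferon-high cells are a description of the split. Levels with and without hormone within either kind of cell depend on the same split, so no conclusion is drawn from their overlap. In Gdf10 F3 fibroblasts the interferon-high share was 2.93% to 3.59% without hormone and 9.32% to 24.8% with it, and in Tnc fibroblasts 0.619% to 2.98% and 2.07% to 4.66%. Outside the layout, VCD_Vehicle_NormEnv and Intact had shares of 10.2% and 13.0% in Gdf10 F3 fibroblasts, inside the range with hormone, and of 5.29% and 4.1% in Dpp4 Pi16 fibroblasts, below it.

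**Figure D5:**
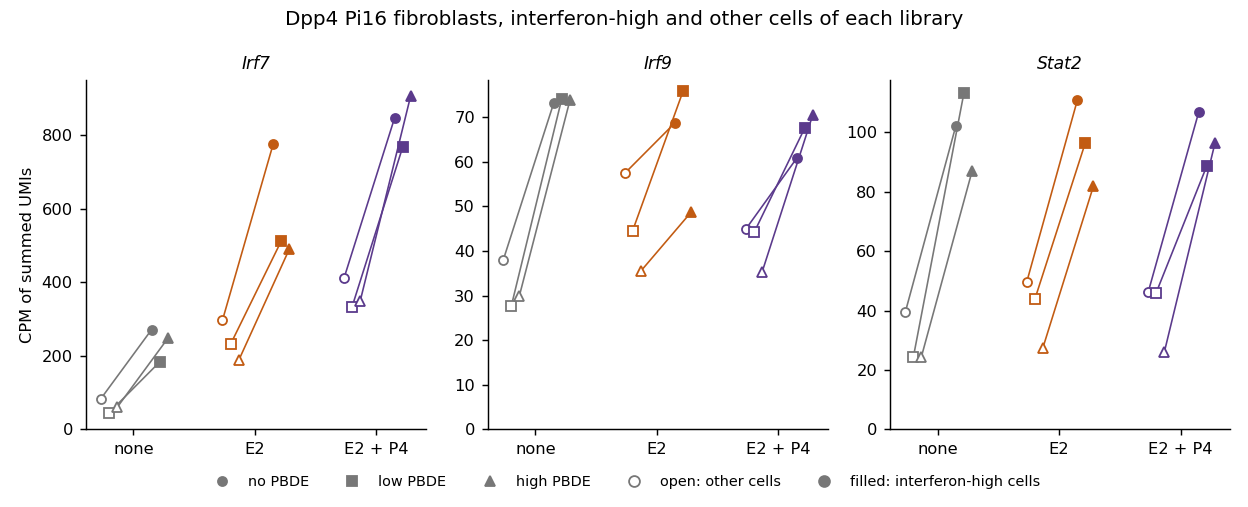
Irf7, Irf9 and Stat2 in CPM in the interferon-high cells (filled) and the other cells (open) of each library of Dpp4 Pi16 fibroblasts, joined by a line for each library, by hormone. For Irf7 both kinds of cells are higher with hormone, up to 907.2 CPM, while the ranges of Irf9 and Stat2 in interferon-high cells overlap with and without it.

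The rest of the pathway is given by lists, beside all genes. In Dpp4 Pi16 fibroblasts, where 5.43% of genes rose and 4.95% fell, 19 of 28 type I interferon-stimulated genes rose and 0 fell (median log2 difference 1.00), led by Ifi44 (3.94 ± 0.41), Oas3 (3.39 ± 0.45), Ifit3b (2.54 ± 0.45) and Ifit3 (2.37 ± 0.49), which encode antiviral proteins. Of 22 tested interferon gamma-stimulated genes 15 rose, among them Cxcl9, a chemokine for T cells (2.18 ± 0.17), and Nlrc5, an activator of MHC class I genes (1.20 ± 0.17). Among the signalling partners of the receptors, the kinase Jak2 rose (0.27 ± 0.06, edgeR adjusted p = 0.0337) and the factor Stat3 fell (-0.31 ± 0.07, adjusted p = 0.0299). Of 12 sensors and adaptors 4 rose, namely the RNA sensors Dhx58 (1.43 ± 0.23), Ifih1 (0.64 ± 0.10) and Ddx58 (0.50 ± 0.10) and the kinase Ikbke (0.50 ± 0.12), and Traf3 fell (-0.30 ± 0.07). Of 7 negative regulators 0 rose, and the phosphatase Ptpn2 fell (-0.53 ± 0.07).

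In Tnc fibroblasts, where 15.8% of genes rose and 14.7% fell, 0 of 24 type I interferon-stimulated genes rose and 9 fell (median -0.48), and of 17 interferon gamma-stimulated genes 1 rose (Cxcl9, 2.16 ± 0.54, edgeR adjusted p = 0.0115) and 14 fell (median -0.88), among them the GTPase Iigp1 (-1.50 ± 0.22, adjusted p = 0.000494). Gdf10 F3 fibroblasts had 21 of 28 type I genes and 8 of 21 interferon gamma genes higher and 0 lower, where 4.09% of genes rose. In Fabp4 fibroblasts 4 of 28 type I genes rose and 2 fell (14.3% and 7.14%), close to the 10.7% and 8.68% of all genes, and of 20 interferon gamma genes 0 rose and 1 fell. In macrophages 2 of 28 type I genes rose, where 0.124% of all genes did. The median log2 difference of the type I genes was 0.94 in macrophages, 1.24 in Gdf10 F3 fibroblasts and 0.43 in Fabp4 fibroblasts. No gene of the 6 other interferon regulatory factors tested was called in Dpp4 Pi16 fibroblasts. In Fabp4 fibroblasts 1 of 6 rose and 2 fell, where 19.3% of all genes were called. In Tnc fibroblasts 1 of 5 fell (30.6%), and in Gdf10 F3 fibroblasts 1 of 6 rose and 1 fell (6.44%).

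Few UMIs of the interferons themselves were found in fibroblasts. Of 12 ligand genes 1 passed the filter in Dpp4 Pi16 fibroblasts and 0 in the other 3 subsets. Ifnb1, a type I ligand, was at 0 to 2.8 CPM in Dpp4 Pi16 fibroblasts, with 155 UMIs in 10 of 12 libraries together, and its fitted hormone difference of 4.28 (log2), which at such low counts depends on the prior count, did not pass the test. Ifng was found in lymphocytes, with medians of 162.1 CPM in CD4 T cells, 145.4 CPM in CD8 T cells and 95.5 CPM in natural killer and innate lymphoid cells, against 0.172 CPM in macrophages. In T cells as a whole its hormone difference was 0.12 and was not called. At these depths the absence of other ligands cannot be shown.

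As a description over 156 population and library sums, which share libraries and differ in depth, the genes most like 8 of the 9 among 8578 were picked by Pearson correlation of log2(CPM + 1). For Irf7 they were Trim30a (0.76), Trim12a (0.69) and Rtp4 (0.66). For Ifngr1 they were Il27ra (0.78), Sla2 (0.77) and Cd7 (0.77), which mark lymphocytes, and for Ifnar1 Nfkbie (0.81), Rel (0.79) and Bcl2l11 (0.78). Irf9 was most like Kpna4 (0.72), which is not on the interferon-stimulated lists. The highest values for the others were Degs1 (0.70) for Ifnar2, Myadm (0.70) for Ifngr2, Itm2a (0.62) for Irf1 and Ppme1 (0.73) for Irf3.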

How the data were processed

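The authors deposited raw UMI counts per gene and cell barcode for 12 libraries (Chromium 3′ v3, Cell Ranger 3.1.0, mm10, per the submitters' processing notes and methods), without normalization or doublet removal. The labels and the methods name different sequencers. The libraries held 58620 barcodes and 41737881 to 109224969 UMIs each, and pairs of libraries shared 0 to 15 barcodes. Cells were kept from 500 genes and 1000 UMIs upwards, up to a mitochondrial share of 5%. No doublet caller was run, but removing the top 4% of cells by UMIs was tried.

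Fibroblasts had at least 50 UMIs of Col1a1, Col1a2, Col3a1, Dcn and Pdgfra per 10000 and lacked UMIs of 6 genes of other cells (Pecam1, Cspg4, Cd52, Ptprc, Krt14, Epcam). Subsets needed at least 16 (Dpp4 Pi16), 20 (Fabp4), 6 (Tnc) or 10 (Gdf10 F3) UMIs of their 4 markers per 10000. The Fabp4, Tnc and Gdf10 F3 subsets had under 8 of the Dpp4 set, and 1925 fibroblasts between 8 and 16 were left out of all subsets. Immune types were gated on raw marker UMIs per cell, not per 10000, outside the fibroblast gate. Their membership thus depends on depth, whose median over passing cells was 11843 to 20446 UMIs per library. The thresholds were set after seeing marker levels, and the 9 genes and all lists were chosen with earlier results of these data known. All 9 genes are named in each population, with at most 4 genes of each list and direction by size of change in Dpp4 Pi16 fibroblasts.

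Counts were summed per library and population and tested with edgeR 4.0.16 in R 4.3.3 (quasi-likelihood test, TMM, filterByExpr, Benjamini-Hochberg over all genes tested, threshold 0.05), requiring at least 20 cells per library. The hormone tests used 9 libraries with PBDE level as a term, so that PBDE levels served as the 3 replicates. Subset, immune type and interaction tests had library as a block. On simulated counts with 200 genes changed by 1 on the log2 scale, the hormone test recovered 68.5% (macrophages, 8845 genes tested) to 82.0% (Fabp4 fibroblasts, 12159 genes). It also called 8 (Tnc fibroblasts) to 18 (Gdf10 F3 fibroblasts) unchanged genes, so calls near the threshold should be read with care. Alternatives for hormone against none were DESeq2 1.42.0, its size factors, no filter, no PBDE term, the file-name code as a term, VCD_Vehicle_NormEnv added, 10% mitochondrial UMIs, doubled gate thresholds, the UMI cut above and each library left out. Subset, immune type and interaction tests were repeated only with DESeq2, its size factors, doubled gate thresholds and each library left out. E2 + P4 against E2 was judged only with DESeq2, its size factors and each library left out. Poisson intervals are at 95% and cover counting error only. CPM sums are not corrected for RNA outside cells. Results for some genes are not reported here.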

Additional observations from a re-analysis of the deposited data

Results flagged for a closer look

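The hormone response differed between fibroblast subsets for 5 of the 9 genes by the edgeR test of the difference itself, with library as a block. Dpp4 Pi16 fibroblasts had the higher response for Irf7 (log2 1.44, adjusted p = 0.00125), with 6 of 6 libraries with hormone above all 3 without in that subset. The same held by the test for Irf9 (0.93, adjusted p = 9.75e-05) and Stat2 (0.80, adjusted p = 0.00022), which rose in Dpp4 Pi16 and fell in Tnc fibroblasts, and for Ifnar2 (0.52, adjusted p = 0.0176), which fell in Fabp4 and Tnc fibroblasts. Ifngr2 had the lower response in Dpp4 Pi16 fibroblasts (-0.48, adjusted p = 0.0101) and rose in Fabp4 and Tnc fibroblasts. The comparison pools the other 3 subsets, and Gdf10 F3 fibroblasts alone, where Irf7 rose by 2.01, were not tested against Dpp4 Pi16 fibroblasts. Among 54 groups of 6 libraries with hormone (9 genes in 6 populations), 0 had a library far from the others. Chance gives about 1 in 20 for replicates of 1 condition. These 6 libraries differ in hormone and PBDE level and recur in every group, so no conclusion is drawn from the 0.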

How the results depend on the processing

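No called difference of the 9 genes changed direction under the alternatives run, which did not cover the pathway lists, and the call of Irf7 in Gdf10 F3 fibroblasts and of Ifngr2, Irf9 and Ifnar2 in Tnc fibroblasts (hormone against none) held under all. The number of the 9 genes called for hormone moved from 3 to 1 in Dpp4 Pi16 fibroblasts without a PBDE term, to 1 with the file-name code as a term and to 0 without the low PBDE libraries, and in Fabp4 fibroblasts from 4 to 2 without a PBDE term and to 1 without the low PBDE libraries. With no filter on low counts it was 2 in Gdf10 F3 fibroblasts (from 1) and 1 each in macrophages and T cells (from 0), and it was 1 in macrophages without the low PBDE libraries. For E2 + P4 against E2, DESeq2 gave 1 in Dpp4 Pi16 fibroblasts (from 0) and 2 in Gdf10 F3 fibroblasts (from 1). With doubled gate thresholds the level comparisons gave 3 in Gdf10 F3 fibroblasts and 3 in CD8 T cells (from 5 each). Leaving out each library in turn gave 1 to 3 (Dpp4 Pi16), 2 to 4 (Fabp4), 3 to 5 (Tnc), 1 to 2 (Gdf10 F3) and 0 to 1 (macrophages) for hormone, 0 to 1 in Tnc and in Gdf10 F3 fibroblasts for E2 + P4 against E2, 3 to 5 for the difference between subsets, 3 to 5 in CD8 T cells and 2 to 3 in B cells. A pseudocount of 5 CPM lowered the low PBDE ratios of Irf7 in Dpp4 Pi16 fibroblasts to 2.56 (E2) and 2.91 (E2 + P4), of Irf7 in Gdf10 F3 fibroblasts with E2 + P4 to 2.63, and of Stat2 in Dpp4 Pi16 fibroblasts with E2 to 1.04. Apart from the construction of the fits with fewer libraries or cells, the cause was not tested. Each condition had 1 library, so hormone effects at a single PBDE level have no replicate. Rare immune types, endothelial cells and luminal cells had few cells.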
